A study of Homo sapiens with 4 samples.

Results

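ONECUT2 occupancy was examined on human chromosomes 13, 18 and 21, a group of autosomes that carry few protein-coding genes. The members were all entries of the 3 deposited lists that lie on these chromosomes, taken by chromosome name alone and not by any measured value. Replicate 1 had 694 such peaks of 14431, replicate 2 had 533 of 11990, and the IDR list had 178 regions of 4297. IDR, the irreproducible discovery rate, is a procedure meant to keep regions that rank alike in replicates. The header of the list calls it the optimal IDR set and names no replicate, so how the 2 ChIP libraries entered it is not known. Of the 178 IDR regions, 82 lay on chromosome 13, 63 on chromosome 18 and 33 on chromosome 21.

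All 4 libraries of the study came from 22Rv1, an established line from a human castration-resistant prostate carcinoma, with no treatment named in the labels. In chromatin immunoprecipitation sequencing (ChIP-seq), chromatin fragments that carry a protein are enriched with an antibody and their DNA is sequenced. The 2 ChIP libraries were made with a rabbit antibody against ONECUT2, and the 2 input libraries were made without antibody. The labels do not say if separate cultures were used for the 2 ChIP libraries, so their spread may be technical, and 1 cell line limits what the regions can stand for. Positions are in hg19, the build that the submitters' processing notes name.

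ONECUT2 is a transcription factor that binds DNA through a cut domain and a homeodomain, and it is known from liver, pancreas and neural development and from advanced prostate cancer. Human chromosomes differ widely in how densely genes are packed. Gene-rich chromosomes tend to lie towards the centre of the nucleus and replicate early. Chromosome 18 is the textbook case of a gene-poor chromosome near the nuclear edge. In the RefSeq gene table (GRCh38.p14), chromosome 13 carries the tumour suppressor genes RB1 and BRCA2, chromosome 18 carries SMAD4 and ONECUT2 itself, and chromosome 21 carries TMPRSS2 and ERG, the partners of the common prostate cancer gene fusion. That table is of another build than the peak lists. It was used only to count and name genes by chromosome, and no region was assigned to a gene.

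The label of gene-poor chromosomes was checked first. RefSeq lists 338 protein-coding genes on chromosome 13, 270 on chromosome 18 and 239 on chromosome 21, the 3 lowest numbers of the 22 autosomes. Lengths were taken as the span between the first and the last listed peak, which leaves out the start of chromosomes 13 and 21, where none was listed. Per Mb of that span, chromosome 18 with 3.47 genes and chromosome 13 with 3.56 genes were the lowest of the autosomes. Chromosome 21 had 6.25 genes per Mb and ranked 12 from the lowest, near the median of 6.98 over the other 19 autosomes. Chromosome 21 is thus poor in genes by number but not by density over the span that holds peaks.

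IDR regions were sparse on all 3 chromosomes. Chromosome 18 had 0.811 regions per Mb (exact Poisson 95% interval 0.623 to 1.04), chromosome 21 had 0.863 (0.594 to 1.21) and chromosome 13 had 0.864 (0.687 to 1.07). These were the 3 lowest densities of the 22 autosomes, but the next chromosomes in the order were close, with chromosome 2 at 0.895, and the intervals do not separate them. The other 19 autosomes together had 1.59 per Mb. Relative to that rate, the 3 chromosomes together stood at 0.532 (exact interval 0.455 to 0.618). Without chromosomes 1, 7 and 12, which had many regions, the ratio was 0.647. The number of copies of each chromosome in these cells was not examined, and no rate here or below is corrected for it. Intervals here and below reflect counting alone and treat peaks as independent, which neighbours are not.

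**Figure D1:**
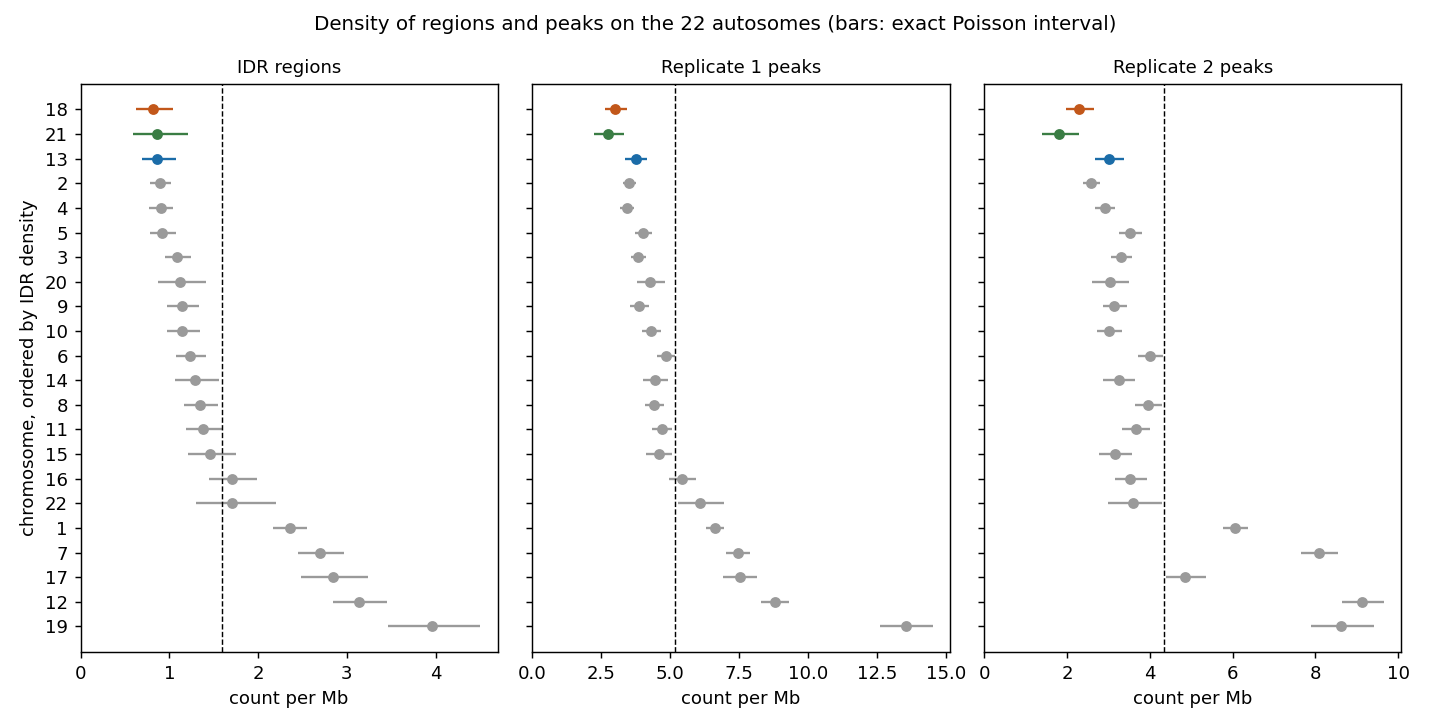
Count per Mb of IDR regions, replicate 1 peaks and replicate 2 peaks on each autosome, with exact Poisson intervals as bars and the rate of the other 19 autosomes together as a dashed line. Chromosomes 18, 21 and 13 (coloured) hold the lowest 3 IDR densities, from 0.811 to 0.864 per Mb, against 0.895 on chromosome 2.

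In the replicate lists chromosomes 21 and 18 changed places, but their order by IDR density was not firm. Lengths from position 1 add the starts of chromosomes 13 and 21, up to 20.2 and 9.83 Mb, where no peak was listed. With these lengths chromosome 21 had the lowest IDR density, 0.687 per Mb, and chromosome 18 ranked 3 from the lowest with 0.809. The added length itself lowers the value of chromosome 21. Chromosome 21 was the lowest autosome in both replicate lists, with 2.75 and 1.81 peaks per Mb. Chromosome 18 followed with 2.998 and 2.29 peaks per Mb. Chromosome 13 was higher, with 3.75 and 3.01, and ranked 5 from the lowest in both. Among peaks with a −log10 q of at least 5 it ranked 5 in replicate 1 and 9 in replicate 2. Relative to the other 19 autosomes, the 3 chromosomes together stood at 0.636 in replicate 1 (0.588 to 0.686) and at 0.583 in replicate 2 (0.534 to 0.636). The input background under the peaks differed between the chromosomes. Its median on chromosome 21 was 11.2 fragments in replicate 1 and 9.99 in replicate 2, above the 10.5 and 7.42 of the other autosomes together, while on chromosomes 13 and 18 it was 9.31 and 8.85 in replicate 1 and 7.10 and 6.79 in replicate 2. At the upper end, the 90th percentile in replicate 1 was 15.1 fragments on chromosome 13 and 14.7 on chromosome 18, below the range of the other autosomes (15.8 to 22.999), and 16.2 on chromosome 21, within it. In replicate 2 it was 15.2, 14.6 and 15.0, all below the range of the others (15.4 to 22.0). Chromosomes 7, 12 and 1 had the highest 90th percentiles in replicate 1, with 22.999, 21.8 and 21.03 fragments. The part of background, or of chromosome copies, in the low densities was not tested.

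Set against genes, the picture divided. The 3 chromosomes hold 7.58% of the autosomal span, 4.43% of the protein-coding genes and 4.18% of the autosomal IDR regions. Per 100 protein-coding genes, chromosome 13 had 24.3 IDR regions (19.3 to 30.1) and chromosome 18 had 23.3 (17.9 to 29.9), beside 22.3 (21.7 to 23.04) on the other autosomes. Chromosome 21 had 13.8 (9.504 to 19.4), an interval below that rate, and ranked 3 from the lowest, with chromosome 22 the lowest at 12.9. Replicate peaks per gene were more numerous on chromosome 13 than on the other autosomes, with 105 and 84.6 per 100 genes against 72.9 and 61.0, at ratios of 1.45 (1.297 to 1.61) and 1.39 (1.23 to 1.56). The IDR ratio of chromosome 13, 1.09 (0.862 to 1.35), included the rate of the others. Chromosome 18 had 86.3 and 65.9 replicate peaks per 100 genes, at ratios of 1.18 (1.04 to 1.35) and 1.08 (0.927 to 1.25). Chromosome 21 was below the others in both lists, with 43.9 and 28.9 per 100 genes.

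**Figure D2:**
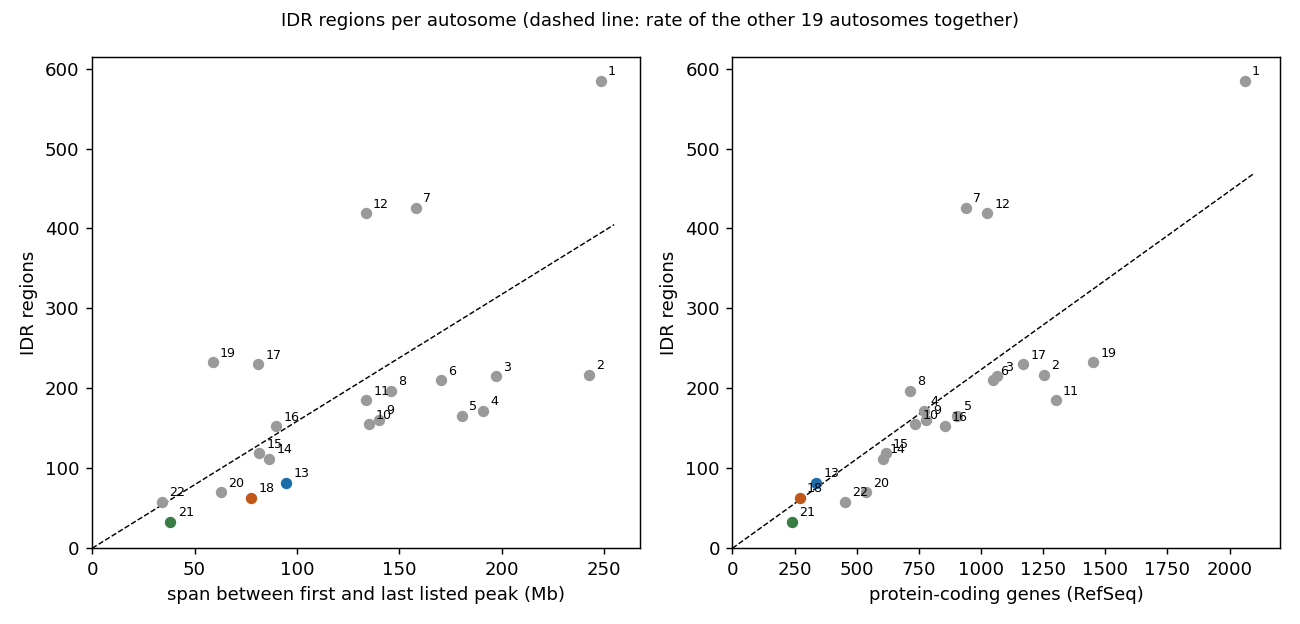
IDR regions of each autosome against its span in Mb (left) and against its number of RefSeq protein-coding genes (right), with the rate of the other 19 autosomes as a dashed line. Chromosomes 13, 18 and 21 (coloured) lie below the line by span, and by gene number chromosomes 13 and 18 lie close to the line and chromosome 21 below it, at 13.8 per 100 genes against 22.3.

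The regions were not spread evenly along the chromosomes. On chromosome 13 the first listed peak began at 20.2 Mb. From 20 to 60 Mb each stretch of 10 Mb held 10 to 14 IDR regions, and from 60 to 70 Mb and from 80 to 90 Mb there were 2 each. Replicate peaks thinned in the same places, with 14 and 17 peaks of the replicates from 60 to 70 Mb and 12 and 11 from 80 to 90 Mb, against 65 and 47 from 40 to 50 Mb. The longest stretch of chromosome 13 with no entry in any list ran for 3.04 Mb, from 85288189 to 88323267.

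Chromosome 18 was more even, with 4 to 11 IDR regions in each stretch of 10 Mb. The fewest, 4, lay from 60 to 70 Mb, although replicate peaks there numbered 31 and 24. Its longest empty stretch ran for 5.70 Mb, from 12991875 to 18690504, which on this chromosome takes in the centromere. On chromosome 21 the IDR regions crowded towards the long-arm end, with 16 from 30 to 40 Mb and 11 from 40 to 50 Mb, against 4 from 20 to 30 Mb and 1 from 10 to 20 Mb. Here the longest empty stretch ran for 5.94 Mb, from 10991568 to 16930375. Whether reads can be placed in the empty stretches was not examined.

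The 1 Mb window with most IDR regions was found on each chromosome. On chromosome 21 it ran from 34 to 35 Mb and held 6 regions, with 10 and 8 peaks of the replicates. The window of chromosome 13, from 50 to 51 Mb, held 4 regions beside 15 and 7 peaks, tied with the window from 111 to 112 Mb, which held 4 beside 14 and 8. The window of chromosome 18, from 12 to 13 Mb, held 4 regions beside 9 and 5 peaks. From 46 to 47 Mb there were 4 as well, beside only 4 and 1 peaks. The window with most replicate peaks was another one on chromosomes 13 and 18. It ran from 45 to 46 Mb on chromosome 13, with 17 and 15 peaks and 3 IDR regions, and from 21 to 22 Mb on chromosome 18, with 10 and 11 peaks and 2 IDR regions.

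**Figure D3:**
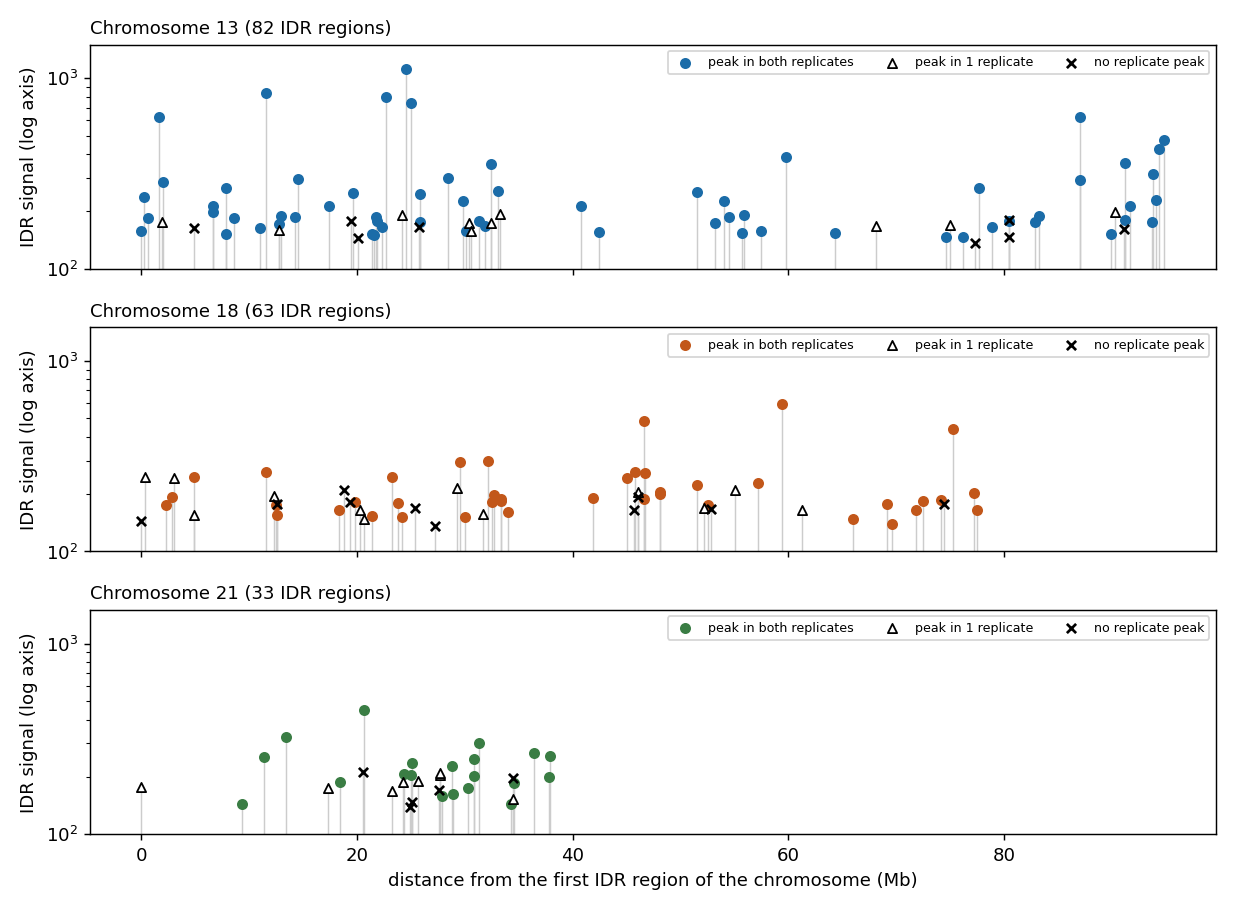
Deposited IDR signal (log axis) of every IDR region on chromosomes 13, 18 and 21 against the distance from the first region of the chromosome in Mb, with marks for a peak in both, 1 or neither of the replicate lists. The 4 highest signals, from 742 to 1117, are on chromosome 13, and on chromosome 21 most regions lie towards the far end.

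Neighbouring IDR regions lay far apart. The median distance between the edges of neighbours was 532 kb on chromosome 13, 577 kb on chromosome 18 and 504 kb on chromosome 21. The other 19 autosomes had medians from 111 kb on chromosome 19 to 411 kb on chromosome 5, so that all 3 chromosomes lay above this range. The quartiles of the 3 chromosomes together were 201 kb and 1668 kb, against 64.8 kb and 625 kb elsewhere. Spacing depends on density, and whether it was wider than density alone gives was not tested. Chromosomes 2, 4 and 5, next in IDR density at 0.895, 0.901 and 0.919 per Mb, had medians of 375, 394 and 411 kb. Chromosome 21 had close and distant neighbours, with a lower quartile of 77.3 kb, within the range of the others, and an upper quartile of 1856 kb, the highest of the 22 autosomes.

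Regions with a neighbour within 50 kb numbered 35 of 178, or 19.7% (exact Clopper-Pearson interval 14.1% to 26.3%), against 35.2% on the other autosomes. On the autosomes next in IDR density, chromosomes 2, 4 and 5, the share was 26.3%, 21.5% and 19.3%. The low share of the 3 chromosomes together is thus near that of chromosomes 4 and 5, and was not separated from low density. Chromosome 18 had the lowest share of all autosomes, with 8 of 63 regions or 12.7% (5.65% to 23.5%). Within 10 kb its share of 9.52% ranked 10 from the lowest, so the first place does not hold at that distance. Chromosome 21 moved most with the distance, from no region within 10 kb, the lowest of the autosomes, to 54.5% within 100 kb, above the median of 45.5% over the others. Chromosome 13 had 17 of 82 (20.7%) and chromosome 21 had 10 of 33 (30.3%, 15.6% to 48.7%). The 35 regions formed 17 clusters and the largest held 3 regions, on chromosome 13 from 100610185 to 100633886. Of those 3 regions, 2 had a peak in neither replicate list. The largest cluster elsewhere held 11 regions. The closest neighbours, 0.746 kb apart, were on chromosome 18 from 48493965 to 48497499, and both had a peak in each replicate.

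Most peaks on the 3 chromosomes were modest, as they were elsewhere. Fold enrichment is the authors' value for each peak, the ChIP pileup at the summit over a background set with input. Many peaks, strong ones among them, had the same smallest background of their list, 4.37 fragments in replicate 1 and 4.87 in replicate 2. At these the fold does not reflect a background particular to the place. The median fold was 3.33 in replicate 1 (quartiles 2.78 and 3.95) and 3.41 in replicate 2 (2.85 and 4.09), beside 3.27 and 3.41 on the other autosomes. The equal medians of replicate 2 are a tie at 1 repeated value, that of 19 fragments over the smallest background. In replicate 1 the 3 chromosomes sat at both ends of the order. Chromosome 13 had the highest median of the 22 autosomes, 3.37, and chromosome 21 the lowest, 3.04, while the other 19 ran from 3.10 to 3.36. In replicate 2 chromosome 13 had 3.43 and chromosome 21 had 3.22, both within the range of the others, 3.03 to 3.52. These differences between chromosomes are small beside the spread of peaks within each of them.

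Peaks with at least 6-fold enrichment numbered 52 of 694 in replicate 1, or 7.49% (5.65% to 9.71%), where 7.46% of the whole list reached it. In replicate 2 they numbered 40 of 533, or 7.50% (5.42% to 10.1%), where 7.08% of the list did. The shares are at the background of each list. Per Mb, strong peaks were fewer than elsewhere, at 0.646 times the rate of the other autosomes in replicate 1 (0.479 to 0.854) and 0.627 times in replicate 2 (0.445 to 0.862). Chromosome 18 had 13 and 10 strong peaks, at ratios of 0.438 (0.232 to 0.753) and 0.425 (0.203 to 0.787), and the lowest number per Mb of the autosomes in both replicates. Chromosome 21 had 8 and 5, at 0.548 (0.236 to 1.08) and 0.432 (0.140 to 1.01), intervals that just include the rate of the others. Chromosome 13 had 31 and 25, at 0.855 (0.578 to 1.22) and 0.871 (0.560 to 1.295), and both intervals include that rate too.

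Pooled over the 3 chromosomes, peak width was close to that elsewhere. The median was 314 bp in replicate 1 and 282 bp in replicate 2 on the 3 chromosomes, beside 316 bp and 293.5 bp elsewhere, and IDR regions had a median width of 1778.5 bp beside 1773 bp. In replicate 2, however, the medians of chromosome 18 (261 bp) and chromosome 21 (273 bp) were below the range of the other 19 autosomes, 274 to 332 bp, which was not so in replicate 1 (304 and 325 bp, others 293.5 to 358.5 bp). The number of ChIP fragments at the summit, recovered from fold and p-value, had a median of 33 in replicate 1 and 29 in replicate 2, beside 35 and 30.

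The strongest IDR regions of the group were on chromosome 13. IDR signal is a deposited value whose scale is not named. By this signal, 4 of the 82 regions of chromosome 13 were among the 100 highest of the whole list. That is 4.88% (1.34% to 12.02%), an interval that includes the 2.302% of the other autosomes. None of chromosome 18 or 21 was among them. Their intervals reach 5.69% and 10.6%, so this does not separate them from the others. The group together had 2.25%. Among the 1000 highest were 19 of 82 regions of chromosome 13 (23.2%), 8 of 63 of chromosome 18 (12.7%) and 5 of 33 of chromosome 21 (15.2%), against 23.4% on the other autosomes. The highest signal was 1117 on chromosome 13, 596 on chromosome 18 and 447 on chromosome 21. The maxima of chromosomes 18 and 21 were below those of all other autosomes, which ran from 796 to 1469.5.

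On chromosome 13 the region of highest signal ran from 44715596 to 44717149 and ranked 16 in the whole list. Its fold enrichment was 11.2 in replicate 1 and 10.3 in replicate 2, or 10.7 ± 0.675 (SD, n = 2), with 165 and 167 fragments at the summit. The replicate peaks there were 4332 and 5058 bp wide, much wider than the IDR region of 1554 bp. The second, from 31736272 to 31737328 with a signal of 839, was the most enriched site of the 3 chromosomes. Fold enrichment was 17.6 in replicate 1 and 24.1 in replicate 2, or 20.8 ± 4.596 (SD, n = 2). In replicate 2 it ranked 3 among all 11990 peaks, and in replicate 1 it ranked 46. The summits lay 220 bp apart, with 190 fragments over a background of 9.86 and 199 over 7.30.

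The third region of chromosome 13 ran from 42845683 to 42846979 (signal 795) and had folds of 14.1 and 10.9, or 12.5 ± 2.23 (SD, n = 2). The other one named there, from 45151286 to 45152274 (signal 742), had 10.4 and 8.54, or 9.46 ± 1.298 (SD, n = 2). Its background of 19.7 and 19.6 fragments was the highest of the named regions. At both sites replicate 1 was the higher, and summits lay 16 and 38 bp apart.

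On chromosome 18 the region of highest signal ran from 59853995 to 59855373 and ranked 146. Folds of 14.4 and 12.2 gave 13.3 ± 1.57 (SD, n = 2), and the nearest IDR regions were 2286 kb before and 1781 kb after it. The region from 47018478 to 47019225 (signal 482) had 12.5 and 13.02, or 12.7 ± 0.399 (SD, n = 2), with summits 22 bp apart. It lay 3.90 kb from its neighbour on one side and 68.1 kb from the next on the other. The region from 75705283 to 75706022 (signal 440) had the highest fold of the chromosome, 15.9 and 17.6, or 16.7 ± 1.19 (SD, n = 2). In the region from 32558130 to 32559297 (signal 298) the replicates were further apart, with 10.6 and 7.29, or 8.93 ± 2.32 (SD, n = 2). Fragments there were close, at 86 and 81, and the background was 7.23 and 10.2.

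On chromosome 21 the region of highest signal ran from 30445771 to 30446397 and ranked 266. It had folds of 13.5 and 11.4, or 12.4 ± 1.48 (SD, n = 2), and summits 9 bp apart. The region from 23269420 to 23270173 (signal 322) had 10.1 in replicate 1 and 17.6 in replicate 2, or 13.9 ± 5.34 (SD, n = 2), the widest spread of the named regions. Its summits were 30 bp apart, with 82 fragments over 7.23 and 107 over 5.12. The region from 41179305 to 41180100 (signal 300) had the closest replicates, 13.2 and 13.5, or 13.3 ± 0.171 (SD, n = 2). Background there was 4.37 and 4.87 fragments, the smallest value of each list. The region from 46205151 to 46206493 (signal 268) was weaker, with 3.04 and 5.99, or 4.52 ± 2.09 (SD, n = 2). Among these 12 regions of highest signal, replicate 1 had the higher fold at 6.

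Ranked by fold instead, the 2 highest peak pairs of each chromosome included 2 sites that the signal ranking did not name. On chromosome 13 the peak from 34698455 to 34700019 had 16.7 and 20.4, or 18.6 ± 2.61 (SD, n = 2), and its IDR region ranked only 684 by signal. It had 89 and 119 fragments over the same 4.37 and 4.87. On chromosome 18 the peak from 29951678 to 29953368 had 13.9 and 16.8, or 15.4 ± 2.06 (SD, n = 2), with 86 and 102 fragments and an IDR rank of 692. Fold was higher in replicate 2 at all 6 pairs chosen in this way, and pairs were not chosen in this way on the other autosomes. Over all 338 overlapping pairs of the 3 chromosomes it was higher in replicate 1 in 221 (65.4%), near the 66.9% of the other autosomes.

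The widest IDR region of the group, chosen after its values were seen, lay on chromosome 13 from 52599570 to 52606238 and spanned 6669 bp. It overlapped 8 peaks of replicate 1 and 4 of replicate 2. The highest of them had a fold of 4.55 and 4.77, with summits 2043 bp apart.

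How far the replicates marked the same places was counted next. A peak was taken as shared when it overlapped a peak of the other list by at least 1 bp. In replicate 1, 338 of 694 peaks were shared, or 48.7% (44.9% to 52.5%), where 51.1% of the whole list was. In replicate 2, 370 of 533 were shared, or 69.4% (65.3% to 73.3%), where 64.5% of the list was. The replicate 2 share of each of the 3 chromosomes was within the range of the other autosomes, which ran from 49.6% on chromosome 7 to 83.5% on chromosome 17. In replicate 1, chromosome 21 had the lowest share of the 22 autosomes, 46 of 105 peaks or 43.8%, but its interval of 34.1% to 53.8% takes in the share of the whole list. Chromosome 13 had 51.4% and chromosome 18 had 46.8%.

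All strong peaks were shared. At 6-fold and above, 52 of 52 peaks of replicate 1 and 40 of 40 of replicate 2 overlapped one in the other list, as did 980 of 982 and 773 of 778 on the other autosomes. From 4 to 6, 93 of 116 (80.2%) and 74 of 101 (73.3%) were shared, beside 83.1% and 73.3% on the other autosomes. From 3 to 4 it was 126 of 275 in replicate 1 (45.8%, 39.8% to 51.9%), beside 50.02% elsewhere, and 130 of 226 in replicate 2 (57.5%, 50.8% to 64.1%), beside 46.8%. Below 3 the replicates diverged, with 67 of 251 (26.7%) in replicate 1 and 126 of 166 (75.9%) in replicate 2, beside 28.9% and 74.8% elsewhere.

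Within the overlapping pairs, fold was compared between replicates. Every shared peak of replicate 1 was paired with the replicate 2 peak whose summit lay closest among those it overlapped, giving 338 pairs with 318 distinct replicate 2 peaks. Spearman's rho of fold was 0.690 over 183 pairs on chromosome 13, 0.637 over 109 on chromosome 18 and 0.709 over 46 on chromosome 21. Over the other autosomes it ran from 0.669 to 0.817, so only chromosome 18 was below the range. For fragments the values were 0.774, 0.802 and 0.797, all below the range of the others, 0.803 to 0.902, though chromosome 18 only just. These are descriptions across peaks of the same 2 libraries. The folds differed by more than 2-fold in 13 of 338 pairs (3.85%), against 1.25% on the other autosomes. In 9 of the 13 replicate 2 was the higher, and 7 of these 9 shared their replicate 2 peak with another replicate 1 peak. All 9 had summits more than 100 bp apart. The median distance between summits was 85 bp, beside 78 bp elsewhere, and 57.1% of pairs had summits within 100 bp, beside 58.4%.

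**Figure D4:**
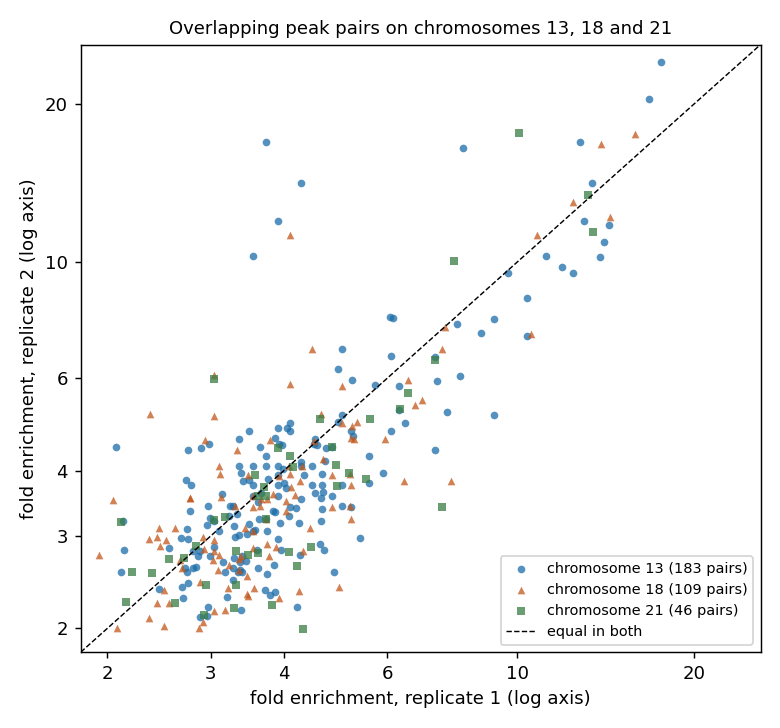
Fold enrichment in replicate 2 against replicate 1 (both log axes) for the 338 overlapping peak pairs on chromosomes 13, 18 and 21, with a dashed line where both are equal. In 221 pairs (65.4%, beside 66.9% on the other autosomes) replicate 1 is the higher. In 13 pairs (3.85%, beside 1.25%) the folds differ by more than 2-fold.

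Of all autosomes, chromosome 13 had the highest share of IDR regions with a peak in both replicate lists. The 2 peaks of a region need not overlap each other. In the chromosome 13 region from 74709270 to 74710707, for example, they did not. Of its 82 regions, 64 (78.0%, 67.5% to 86.4%) overlapped a peak in both replicate lists, where 63.3% of the whole IDR list did. The other 19 autosomes ran from 55.4% on chromosome 12 to 73.5% on chromosome 5. Chromosome 18 had 41 of 63 (65.1%, 52.0% to 76.7%) and chromosome 21 had 20 of 33 (60.6%, 42.1% to 77.1%), close to the median of the others, 64.3%. Together the 3 chromosomes had 125 of 178 (70.2%, 62.9% to 76.8%). Chromosome 13 stayed first of the 22 when the replicate summits had to lie inside the region (75.6%), when only peaks with a −log10 q of at least 5 counted (61.0%) and when either replicate list was used alone (79.3% and 89.0%). Chromosome 18 was the lowest of all under the −log10 q limit, at 34.9%. The interval of chromosome 13 includes the share of chromosome 5, and a first place among 22 is a description, not a test.

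**Figure D5:**
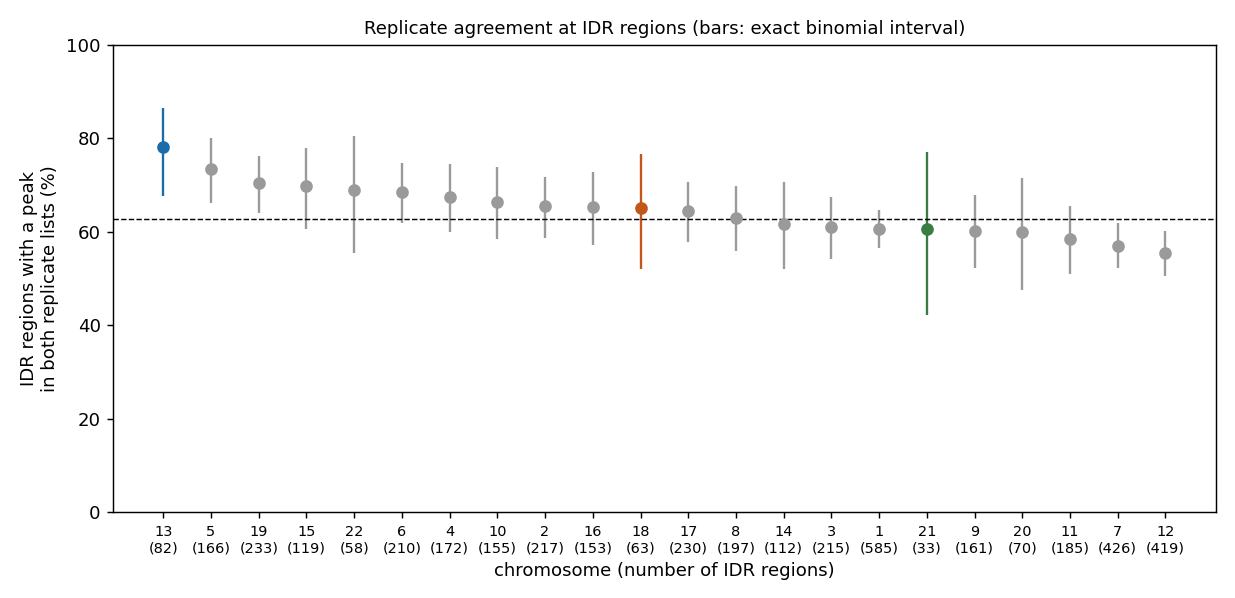
Percent of IDR regions with a peak in both replicate lists on each autosome, in falling order, with exact binomial intervals as bars, the number of regions in brackets and the share of the other 19 autosomes together as a dashed line. Chromosome 13 is first with 78.0%, and chromosomes 18 and 21 lie in the middle and lower part with wide intervals.

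Regions with no replicate peak at all numbered 23 of 178, or 12.9% (8.37% to 18.8%), where 18.3% of the whole IDR list had none. They were 8 on chromosome 13, the lowest share of the autosomes at 9.76%, 10 on chromosome 18 and 5 on chromosome 21. A peak in replicate 1 only was found at 26 regions (14.6%) and in replicate 2 only at 4 (2.25%), near the 15.7% and 2.87% of the other autosomes. Regions with a peak in both had a median signal of 192, with a highest value of 1117, and a median width of 1584 bp. Those with none had a median signal of 167, with a highest value of 212, and a median width of 2241 bp. Elsewhere the signal of regions with both was higher, at a median of 216, while widths were alike, 1584 and 2193 bp.

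Agreement was split by signal into 4 classes of equal size over all autosomal IDR regions. In the highest class, above 247, all 38 regions of the 3 chromosomes had a peak in both lists (90.7% to 100%), where 942 of 1028 or 91.6% did on the other autosomes. In the lowest class, below 162, 21 of 34 had one, or 61.8% (43.6% to 77.8%), against 38.02% elsewhere. The 2 middle classes had 41 of 67 (61.2%) and 25 of 39 (64.1%), against 52.7% and 68.5%. The regions of lowest signal were thus more often backed by both replicate lists than regions of like signal elsewhere, while in the class from 192 to 247 the share was no higher.

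At the 125 regions with a peak in both lists, the highest-fold peak of each list was taken, and these 2 need not overlap. Their mean fold ran from 2.33 to 20.8 with a median of 4.29, and the median SD between them was 0.640. This SD can mix different sites, as in the widest region, where the summits lay 2043 bp apart. The replicate 1 peak had the higher fold at 88 of the 125 regions. Both replicates reached a fold of 6 at 32 regions, 21 on chromosome 13, 6 on chromosome 18 and 5 on chromosome 21, and both stayed below it at 82. Summits lay within 100 bp of each other at 61 of the 125. These values were not computed for regions of the other autosomes, so whether they differ from those elsewhere is not known.

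In turn, the IDR list covered 227 of 694 replicate 1 peaks, or 32.7% (29.2% to 36.3%), where 32.8% of the whole replicate list did. In replicate 2 it was 177 of 533, or 33.2% (29.2% to 37.4%), where 31.4% of the list did. Of strong peaks the IDR list held 42 of 52 (80.8%) in replicate 1 and 33 of 40 (82.5%) in replicate 2, near the 81.3% and 77.1% of the other autosomes. Outside the IDR list were 193 of the 338 shared peaks of replicate 1 (57.1%) and 214 of the 370 of replicate 2 (57.8%), near the 57.05% and 56.4% of the other autosomes.

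The first IDR region of chromosome 21, chosen after its values were seen, stood apart. It ran from 9832644 to 9834796 with a signal of 177 and had no replicate 1 peak. Replicate 2 had 2 peaks there, with folds of 2.72 and 4.43. The next IDR region began 9.36 Mb further on, at 19190769. The only place before the long empty stretch with a peak in both replicates was near 10965093, where folds were 4.84 in replicate 1 and 2.76 and 4.43 at the 2 replicate 2 peaks, and no IDR region was listed. Sequence near the centromere of chromosome 21 is known for duplications, where reads can be hard to place.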

How the data were processed

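ChIP-seq peak lists of 22Rv1 cells were analysed. Tools in the submitters' processing notes, listed without steps, are MACS2 2.1.1, Picard and BWA 0.7.13-r1126, with the build hg19. Per the file headers, the authors called the peaks of each replicate list with MACS2. The authors' deposited values there are fold enrichment, −log10 p and q (smallest −log10 q 1.32), and a score that equals 10 times −log10 q as a whole number. The IDR list holds a deposited signal value and a score of at most 1000; its caller and scale are not given in the sources used here.

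Entries on chromosomes 13, 18 and 21 were set against the other 19 autosomes, per list, with Python 3.11.15, pandas 2.3.3 and SciPy 1.17.1. Fragments at each summit were recovered from fold, (fragments + 1)/(background + 1), and −log10 p as a Poisson tail. A whole number fitted within 0.001 for 100% of autosomal peaks of both lists. Overlap, fragment recovery and their functions were tested on simulated data. Total read depth is not given in the sources used here, so precision rests on the fragments. Intervals are exact at 95%, with no p-value: peaks of a library are not replicates. Named regions are, per chromosome, the 4 of highest IDR signal with a peak in both lists (the highest-fold peak of each replicate gives its values), the 2 peak pairs of highest mean fold, the longest empty stretch and the fullest 1 Mb window. Members and lists were chosen with earlier results of these data known. Genes fixed for naming (38, all matched to these chromosomes) and sequences were not used for regions, since no hg19 annotation or genome was used here. Alternatives covered lengths, overlap, thresholds, distances and single replicates.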

Additional observations from a re-analysis of the deposited data

How the results depend on the processing

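Of 31 values from other settings, 14 moved by less than the error of the reported value and 17 by more. The causes were not tested unless the setting itself gives them. The comparison without chromosomes 1, 7 and 12, each chromosome alone, and the −log10 q limit for IDR agreement were added after seeing the data. The density ratio of replicate peaks was 0.610 as the mean of both lists. It was 0.546 with lengths from position 1, which add chromosome starts where no peak was listed. Without chromosomes 1, 7 and 12 it was 0.718, and that of IDR regions was 0.647. One list alone gave 0.583 to 0.636. Shared peaks (48.7% and 69.4%) were 30.7% and 40.0% with a reciprocal overlap of 50%, and 27.8% and 36.2% with summits within 100 bp. The other autosomes had 32.3%, 38.6%, 29.8% and 35.7%. Median fold (3.37) was 3.98 with −log10 q of at least 5, by construction, and 3.33 to 3.41 for one list alone. By construction too, a fold of at least 4 was reached by 24.2% and 26.5% of peaks and of at least 10 by 3.17% and 3.56%, and neighbours within 10 kb and 100 kb were found for 5.62% and 30.9% of IDR regions, against 12.4% and 51.8% elsewhere. The share of IDR regions with a peak in both lists (70.2%) was 78.0%, 65.1% and 60.6% on chromosomes 13, 18 and 21 alone, and one replicate list alone had a peak at 72.5% to 84.8%. No paired analysis was possible because ChIP and input are already combined in every deposited list. With medians of 33 and 29 fragments at a summit, single folds near the calling limit are imprecise. Gene assignment settings were not run, as no annotation of hg19 was used here.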
